A study of Rattus norvegicus with 8 samples.

Results

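The genes described here are 36 liver genes of fatty acid oxidation, ketone body formation and regulation by PPAR-alpha, the nuclear receptor that senses fatty acids. They were matched by symbol or gene identifier, and all 36 were found, each by 1 probe set, among the 24137 genes and 26208 probe sets of the array. Liver RNA came from 8 male F344/N rats hybridised to NimbleGen arrays read in 1 colour (Cy3), 1 array per animal. The first group held 4 rats given thioacetamide, a liver toxicant that liver enzymes turn into its reactive form, for 28 days, and the second held 4 untreated controls. The labels name gavage as the route for both groups, while their protocol says that controls had basal diet and tap water only, and neither dose nor age is given in the sources used here. Levels are log2 expression values made with RMA, so a difference of 1 is a factor of 2. Levels of different genes rest on different probes and are not compared with one another. Control replicate 3 correlated least with its own group over all probe sets, which are not independent replicates (mean r of 0.935, against 0.954 to 0.959 for the other controls).

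Fatty acids enter the hepatocyte, are activated to acyl-CoA and are shortened in different compartments. Mitochondria take acyl groups through the carnitine shuttle and oxidise short, medium and long chains, passing electrons to the respiratory chain through the electron transfer flavoprotein, and in liver much of the acetyl-CoA leaves as ketone bodies. Peroxisomes shorten very long and branched chains and the side chain of bile acid precursors, and cytochromes P450 of family 4 in the endoplasmic reticulum start omega oxidation. PPAR-alpha, bound to DNA with its partner RXR, controls many of these genes in rodent liver, typically at a direct repeat of half-sites with a spacing of 1 base, called DR1.

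The promoters of Acox2 and Amacr are shown because these peroxisomal genes had the largest falls of their compartment, and that of Fabp1 because it alone among the members matched the DR1 searched. Each sequence runs from 250 bases before to 50 bases after the gene's start, from RefSeq, build GRCr8, and capitals mark a motif match. Acox2 lies at chr15:19090705-19091004, Amacr at chr2:61673085-61673384 and Fabp1 at chr4:104749090-104749389, all on the plus strand.
Acox2: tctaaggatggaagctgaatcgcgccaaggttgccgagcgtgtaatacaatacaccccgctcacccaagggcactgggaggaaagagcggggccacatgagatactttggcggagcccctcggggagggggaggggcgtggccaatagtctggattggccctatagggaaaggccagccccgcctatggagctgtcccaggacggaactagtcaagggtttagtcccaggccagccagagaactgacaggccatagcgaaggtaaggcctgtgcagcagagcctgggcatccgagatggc
Amacr: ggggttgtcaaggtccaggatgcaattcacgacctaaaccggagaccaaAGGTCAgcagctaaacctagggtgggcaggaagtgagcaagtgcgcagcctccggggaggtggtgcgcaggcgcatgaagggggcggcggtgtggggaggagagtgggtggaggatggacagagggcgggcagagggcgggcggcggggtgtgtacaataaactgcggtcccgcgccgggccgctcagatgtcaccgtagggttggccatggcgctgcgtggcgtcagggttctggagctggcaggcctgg
Fabp1: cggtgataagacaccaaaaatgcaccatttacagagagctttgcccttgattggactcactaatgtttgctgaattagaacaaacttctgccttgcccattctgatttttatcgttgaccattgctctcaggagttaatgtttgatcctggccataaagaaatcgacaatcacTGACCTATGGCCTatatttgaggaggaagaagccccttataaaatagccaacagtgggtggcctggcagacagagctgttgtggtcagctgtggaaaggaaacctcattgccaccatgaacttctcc
The DR1 searched was AGGNCANAGGNCA on both strands. It was in 139 of 33469 promoters of that length (0.415%) and in 1 of the 32 member promoters in the table, that of Fabp1, on the minus strand 77 to 65 bases before the start. The single half-site AGGTCA, on either strand, was in 16.2% of all promoters and in 9 of the 32 (28.1%), namely Acadvl, Amacr, Cyp4a2, Cyp4a3, Eci1, Fabp1, Hadhb, Hsd17b4 and Slc27a2. The Fabp1 half-site lies within its DR1. The Acox2 window holds neither set of letters. Acadl, Cyp4a1, Acaa2 and Decr1 were not in the table.

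After 28 days of thioacetamide, 8 of the 36 genes fell and 0 rose. The 8 were the peroxisomal enzymes Acox2, Amacr and Hsd17b4, the ketone body enzyme Bdh1, the mitochondrial Acads and Etfb, the acyl-CoA synthetase Acsl1 and the receptor gene Ppara. Their falls ran from 1.71-fold for Hsd17b4 to 3.38-fold for Acox2. The test was limma's moderated test with p-values adjusted over the whole array by the Benjamini-Hochberg method, at an adjusted p under 0.05. Over all probe sets, 14.6% passed, 9.46% higher and 5.14% lower, so 22.2% of the members lower stood beside 5.14%. Among the 10036 probe sets above background on all 8 arrays, a class that held 34 of the 36 members, 10.8% were lower and 12.7% higher. The median log2 difference of the members was -0.33, with 26 negative and 10 positive, against -0.03 over all probe sets. In 14 members the groups did not overlap, 12 with lower and 2 with higher thioacetamide values, while this held for 21.5% of all probe sets, 7.55% with lower and 13.9% with higher thioacetamide values. At an unadjusted p under 0.05 (limma), 13 members were lower and 2 higher, Hadhb and Eci1. Of all 26208 probe sets, 3299 were lower and 4440 higher at that p. With an intensity trend and robust estimation 1 member (Eci1) rose. The count of 8 was 3 without thioacetamide replicate 2, 5 without thioacetamide replicate 1, and 4 without thioacetamide replicate 4 or control replicate 1, 2 or 4. It was 9 without control replicate 3, and 7 with control replicates 2 and 3 and thioacetamide replicate 4 left out together, a choice made after seeing the data.

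**Figure D1:**
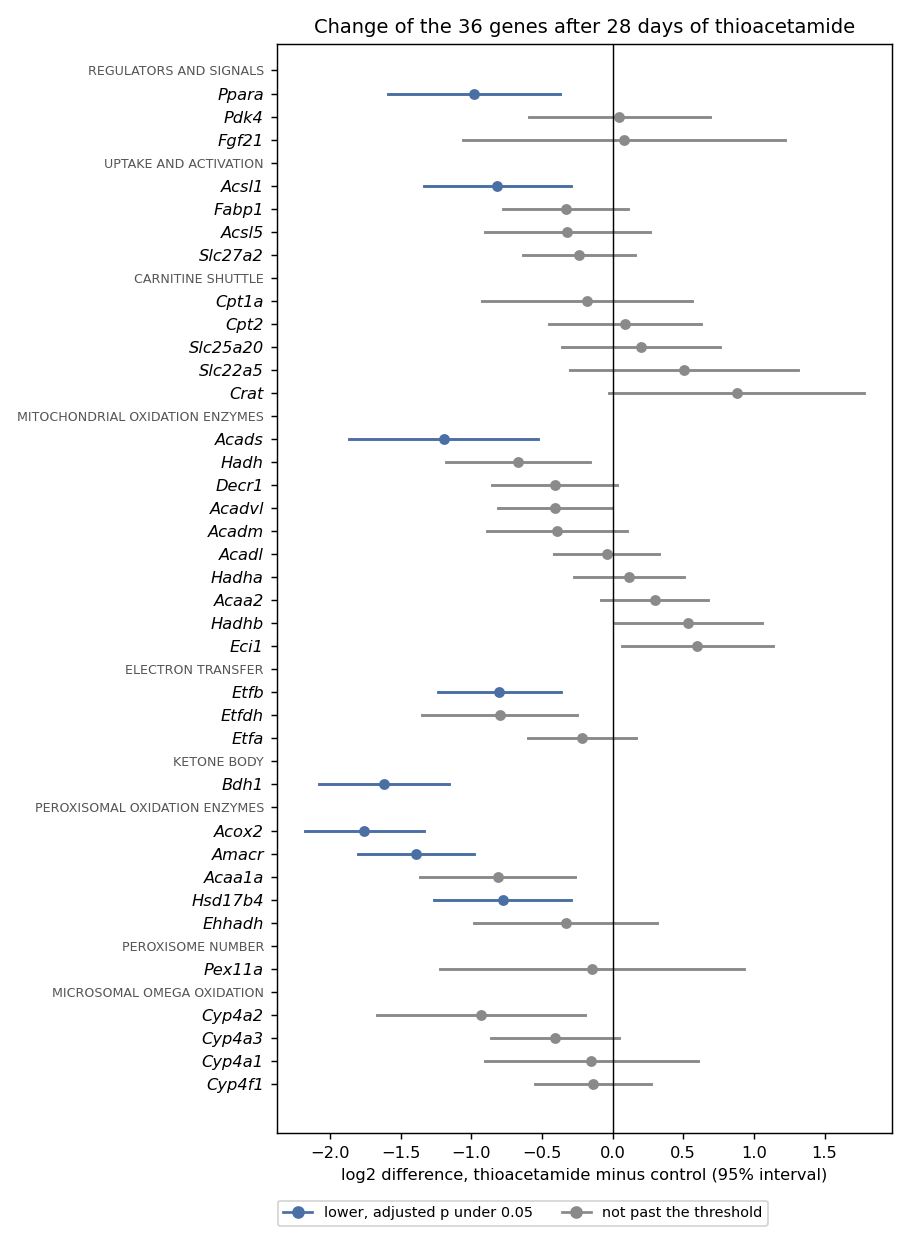
Log2 difference, thioacetamide minus control, of each of the 36 genes by role (points, with 95% intervals of the fit, 4 animals per group). The 8 blue genes passed the adjusted p threshold, all lower, from -0.78 for Hsd17b4 to -1.76 for Acox2, and the 28 grey genes did not.

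The tissue was liver by its markers. The 6 hepatocyte markers (Alb, Ttr, Apoa1, Tf, Fgb and Ambp) had mean levels of 15.02 or more in both groups, 0 of 6 passed the test in either direction (limma, and 0 at an unadjusted p under 0.05), and their summed linear level was 282611 to 296950 in thioacetamide livers and 284510 to 294898 in control livers. They lie close to the top of the scale, where the highest value of an array was 15.89 to 15.98. Among markers of other cells, 2 of 6 bile duct (Epcam, Cldn7) and 3 of 6 stellate cell markers (Des, Lrat, Dcn) were higher. Des was above background on 2 of 4 thioacetamide and 0 of 4 control arrays, and Cldn7 on 2 of 4 control arrays. The stellate cell markers Acta2, Rgs5 and Col1a1 did not pass. Lower were 3 of 6 macrophage (Marco, Clec4f, Csf1r), 2 of 6 T and NK cell (Gzma, Nkg7) and 1 of 6 sinusoidal endothelial markers (Vwf). Over all probe sets 9.46% were higher and 5.14% lower. The summed linear level of the bile duct markers was 6362 to 8969 in thioacetamide livers and 1884 to 5499 in control livers, and that of the stellate cell markers 9340 to 16024 in thioacetamide livers and 6623 to 14323 in control livers. For the macrophage markers it was 15894 to 24749 in thioacetamide livers and 21373 to 38247 in control livers, for the T and NK cell markers 655 to 916 in thioacetamide livers and 1410 to 2454 in control livers, and for the endothelial markers 6987 to 8717 in thioacetamide livers and 9944 to 12689 in control livers. Cd3e and Klrd1 of the T and NK cell list were at or under background on all 8 arrays. A summed level is set mostly by its brightest probe sets. Cd68 was the largest term of the macrophage sum on every array, and Col1a1 that of the stellate cell sum. Neither Cd68 nor Col1a1 passed the test. The part of these cell types in the results was not tested. In such whole-tissue RNA, fewer cells of a type and less RNA per cell cannot be told apart.

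Of the 5 peroxisomal oxidation enzymes among the members 3 fell, 4 had groups that did not overlap, and all 5 differences were negative, with a median of -0.81. Over all probe sets 5.14% fell, and 21.5% had groups that did not overlap, 7.55% with lower thioacetamide values. Acox2, the oxidase that starts the shortening of the bile acid side chain, read 12.39, 12.15, 12.13 and 12.59 in thioacetamide livers, against 14.22, 13.91, 13.99 and 14.16 in control livers. All 4 treated livers lay well below all 4 controls, and the spread within each group was small beside the gap. The log2 difference was -1.76 ± 0.19 (SE), 3.38-fold lower, with group means of 12.31 ± 0.22 and 14.07 ± 0.14 (SD, n = 4 each) and an adjusted p of 0.000331 (limma).

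Amacr, the racemase that turns branched-chain acyl-CoAs into the form that peroxisomal oxidases accept, read 13.16, 13.28, 13.57 and 13.10 in thioacetamide livers, against 14.66, 14.82, 14.54 and 14.64 in control livers. The groups again stood clear of each other. Its log2 difference was -1.39 ± 0.18, 2.62-fold lower, with an adjusted p of 0.00104 (limma, SE, n = 4 per group). Hsd17b4, the bifunctional enzyme that carries out the hydratase and dehydrogenase steps on these substrates, read 12.87, 13.15, 13.51 and 12.72 in thioacetamide livers, against 13.92, 13.79, 13.66 and 14.00 in control livers. Here the gap was narrow, since thioacetamide replicate 3 came close to control replicate 3. Its log2 difference was -0.78 ± 0.22 (adjusted p = 0.0394, limma). It missed the threshold without thioacetamide replicate 1, 2 or 4 or control replicate 1, 2 or 4 (differences of -0.81 to -0.66, adjusted p = 0.0736 to 0.115).

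The other enzymes of the compartment did not pass. Acaa1a, the peroxisomal thiolase, differed by -0.81, with a 95% interval of -1.36 to -0.26 and an adjusted p of 0.0535, and its groups did not overlap. Ehhadh, the bifunctional enzyme for straight chains and a classic rodent PPAR-alpha target, differed by -0.33 with an interval of -0.98 to 0.31. Pex11a, a peroxisomal membrane protein that takes part in peroxisome division, read 8.92, 8.19, 9.20 and 7.96 in thioacetamide livers and 9.75, 9.38, 7.54 and 8.20 in control livers, and was at or under background on the array of control replicate 3. Its groups were fully intermixed, with a difference of -0.15 and an interval of -1.22 to 0.93 (adjusted p = 0.873, limma).

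**Figure D2:**
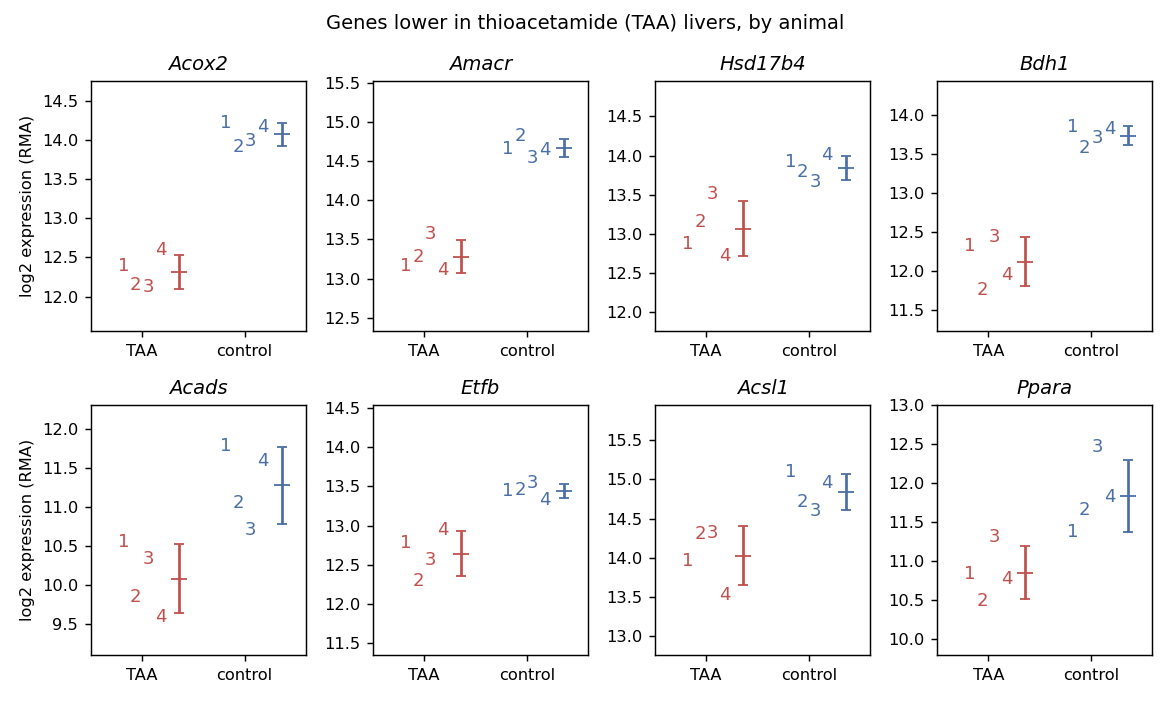
Log2 expression of the 8 genes that passed the threshold, by animal (digit: replicate number; TAA, thioacetamide; bars beside the digits: mean ± SD of 4 animals). In each panel every thioacetamide animal lies below every control animal, with the clearest gaps for Acox2, Amacr and Bdh1.

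The other peroxisomal oxidation genes on the array were counted beside the members. Of 15, 3 fell and 0 rose (0 higher also at an unadjusted p under 0.05, limma). The shares of all probe sets were 5.14% lower and 9.46% higher. Hacl1, which cleaves 2-hydroxy acids in alpha oxidation, fell to 12.07 ± 0.58 in thioacetamide livers, against 13.63 ± 0.48 in control livers (log2 difference -1.56 ± 0.33, adjusted p = 0.0119, limma). Acox3, a branched-chain oxidase, differed by -1.24 (adjusted p = 0.017), and without thioacetamide replicate 2 by -1.23 (adjusted p = 0.0538). Scp2, whose longer product is the thiolase for branched chains, differed by -0.71 (adjusted p = 0.0442) and missed the threshold with any array but thioacetamide replicate 3 left out (adjusted p = 0.0551 to 0.121). Of 15 genes of peroxisome assembly, 1 rose, Pex26, by 0.71 (adjusted p = 0.0339). Pex26 missed the threshold without thioacetamide replicate 1, 2 or 3 or control replicate 2 or 3 (adjusted p = 0.0539 to 0.106). Pex19, a carrier of membrane proteins to the peroxisome, did not pass by its brightest probe set, while another of its probe sets differed by -1.25 (adjusted p = 0.0041) and a further one by 0.06 (adjusted p = 0.948).

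Mitochondrial oxidation was mixed. Of its 10 enzymes 1 fell and 0 rose (limma, with 3 lower and 2 higher at an unadjusted p under 0.05), 6 differences were negative and 4 positive, and the median was -0.22. In 6 of the 10 the groups did not overlap, 4 of them with lower thioacetamide values. Beside this, 5.14% of all probe sets fell, and 21.5% had groups that did not overlap, 7.55% with lower thioacetamide values. The gene that fell was Acads, the acyl-CoA dehydrogenase for short chains, which read 10.56, 9.85, 10.33 and 9.60 in thioacetamide livers, against 11.78, 11.05, 10.70 and 11.58 in control livers. The lowest control, replicate 3, lay just above the highest treated liver, replicate 1. The log2 difference was -1.19 ± 0.30 (adjusted p = 0.0254, limma, n = 4 per group). Acads missed the threshold without thioacetamide replicate 2 or 4 or control replicate 1 or 4 (differences of -1.12 to -1.03, adjusted p = 0.0546 to 0.0849).

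The remaining dehydrogenases of this compartment did not pass. Acadvl, for very long chains, differed by -0.41 (interval -0.81 to -0.01), Acadm, for medium chains, by -0.39 (-0.89 to 0.10), and Acadl, for long chains, by -0.04 (-0.41 to 0.33). Hadh, the hydroxyacyl-CoA dehydrogenase for medium and short chains, differed by -0.67 (-1.18 to -0.16, adjusted p = 0.0797), with groups that did not overlap. Decr1, the reductase for unsaturated chains, differed by -0.41 (-0.85 to 0.03). The groups of Acadvl and of Decr1 did not overlap either.
On the positive side lay both subunits of the trifunctional protein, with Hadha at 0.11 (-0.27 to 0.50) and Hadhb at 0.54 (0.01 to 1.06, adjusted p = 0.159), the thiolase Acaa2 at 0.30 (-0.08 to 0.68) and the enoyl-CoA isomerase Eci1 at 0.60 (0.07 to 1.13, adjusted p = 0.127). Hadhb and Acaa2 had groups that did not overlap. Eci1 did overlap, with 13.98, 13.48, 14.20 and 13.81 in thioacetamide livers and 13.54, 13.53, 13.18 and 12.81 in control livers.

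Electron transfer from these dehydrogenases runs through a flavoprotein of the subunits Etfa and Etfb and its dehydrogenase Etfdh. Of the 3 genes 1 fell, beside 5.14% of all probe sets. Etfb read 12.78, 12.29, 12.56 and 12.94 in thioacetamide livers, against 13.44, 13.45, 13.55 and 13.33 in control livers. The controls lay close together and every treated liver lay under them. The log2 difference was -0.80 ± 0.20, with an adjusted p of 0.0228 (limma, n = 4 per group). Etfb missed the threshold without thioacetamide replicate 2 or 3 or control replicate 1 or 2 (differences of -0.80 to -0.68, adjusted p = 0.0513 to 0.0766). Etfdh had the same size of difference, -0.80 (interval -1.35 to -0.25, adjusted p = 0.0572), but control replicate 3 at 13.43 lay below thioacetamide replicate 3 at 13.52. Etfa differed by -0.22 (-0.60 to 0.16).

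Of 11 other genes of mitochondrial oxidation, 2 fell and 0 rose (0 higher also at an unadjusted p under 0.05, limma). Among all probe sets, 5.14% fell and 9.46% rose. Acad10, an acyl-CoA dehydrogenase family member, fell to 10.17 ± 0.44 in thioacetamide livers, against 12.12 ± 0.19 in control livers (log2 difference -1.96 ± 0.24, adjusted p = 0.000761, limma). Ivd, isovaleryl-CoA dehydrogenase of leucine breakdown, read 12.08, 12.03, 12.23 and 12.02 in thioacetamide livers, against 13.78, 13.58, 13.70 and 13.87 in control livers. Both groups were tight and far apart, and the log2 difference was -1.64 ± 0.17 (adjusted p = 0.000294, limma). Ivd passes its electrons to the electron transfer flavoprotein. The 11 were Acad8, Acad9, Acad10, Acad11, Acadsb, Ivd, Echs1, Eci2, Mlycd, Slc25a45 and Nnt. With Ivd of leucine breakdown among them, the list is wider than the enzymes of fatty acid oxidation.

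The carnitine shuttle had 0 of 5 genes past the threshold in either direction (limma, and 0 at an unadjusted p under 0.05), with 4 positive differences and a median of 0.20. Crat, which moves acetyl groups to and from carnitine, had the largest, with 11.39, 10.94, 11.43 and 10.90 in thioacetamide livers and 11.14, 10.95, 9.20 and 9.85 in control livers. The difference of 0.88 (interval -0.02 to 1.78, adjusted p = 0.179) came with overlapping groups, since control replicates 1 and 2 lay among the treated livers and replicates 3 and 4 below them. Cpt1a, the gate of mitochondrial entry and a PPAR-alpha target, read 12.55, 12.44, 13.39 and 12.38 in thioacetamide livers and 13.41, 13.18, 12.06 and 12.84 in control livers. It differed by -0.18 with an interval of -0.93 to 0.56. The remaining genes were the inner-membrane transferase Cpt2 at 0.09, the translocase Slc25a20 at 0.20 and the plasma membrane carnitine transporter Slc22a5 at 0.51 (adjusted p = 0.39 to 0.848).

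Microsomal omega oxidation had 0 of 4 members past the threshold in either direction (limma, and 1 lower at an unadjusted p under 0.05), all 4 with negative differences and a median of -0.28. Cyp4a2, a fatty acid omega hydroxylase, read 14.66, 13.03, 14.33 and 13.71 in thioacetamide livers and 15.11, 14.77, 14.63 and 14.93 in control livers. Thioacetamide replicate 1 just exceeded the lowest control, so the groups overlapped, and the treated livers were spread widely. The difference was -0.93 (interval -1.67 to -0.19, adjusted p = 0.0908, limma). Its close relative Cyp4a3 differed by -0.41 (-0.86 to 0.05), Cyp4a1 by -0.15 (-0.90 to 0.60) and Cyp4f1 by -0.14 (-0.55 to 0.27). Genes of this family are alike in sequence, Cyp4a2 and Cyp4a3 most of all, so a probe set may carry signal from a relative. Of 12 other microsomal genes, 3 fell and 1 rose, against 5.14% and 9.46% of all probe sets. Cyp4f4, of the family 4F that hydroxylates leukotrienes and fatty acids, fell to 12.65 ± 0.43 in thioacetamide livers, against 14.85 ± 0.20 in control livers (log2 difference -2.19 ± 0.24, adjusted p = 0.00038, limma). Cyp4f39 differed by -1.37 (adjusted p = 0.00786), and by -0.55 in another of its probe sets (adjusted p = 0.256). Cyp4a8 was at least 2.81-fold lower (adjusted p = 0.0281), with thioacetamide livers at or under background on all 4 arrays. It missed the threshold without thioacetamide replicate 1, 2 or 3 or control replicate 1, 2 or 4 (adjusted p = 0.0582 to 0.0846), and its measured difference of -2.09 was -2.70 without control replicate 3. Cyp4f5 was at least 1.76-fold higher (adjusted p = 0.00415), with control livers at or under background on all 4. These bounds set the mean of the brighter group against the dimmer group's mean of the higher of background and signal.

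Set side by side, 3 of 5 peroxisomal, 1 of 10 mitochondrial and 0 of 4 microsomal enzymes fell. Over all probe sets 5.14% fell. Among those above background on all 8 arrays, a class that held every one of these enzymes, 10.8% fell, so the mitochondrial count lay close to that share. By animal, the median deviation of the peroxisomal enzymes from their control means was -0.97, -1.27, -0.42 and -1.12 in thioacetamide livers, against 0.15, -0.05, -0.18 and 0.14 in control livers. For the mitochondrial enzymes it was -0.17, -0.23, -0.05 and -0.10 in thioacetamide livers, against 0.21, -0.01, -0.16 and -0.01 in control livers, so the groups overlapped. For the microsomal enzymes it was -0.15, -0.37, -0.17 and -0.72 in thioacetamide livers, against 0.26, -0.08, -0.17 and 0.17 in control livers. These groups overlapped too, with thioacetamide replicates 1 and 3 just above control replicate 3. With electron transfer and the carnitine shuttle counted as mitochondrial, 2 of 18 fell with a median of -0.11, and with Pex11a and Slc27a2 counted as peroxisomal, 3 of 7 fell with a median of -0.78. The related genes outside the 36 did not repeat this order, though their lists are wider than the enzyme lists of the members. Of these, 3 of 15 peroxisomal genes fell with a median of -0.34, 2 of 11 mitochondrial genes with a median of -0.62 and 3 of 12 microsomal genes with a median of -0.36. At an unadjusted p under 0.05 (limma), 4 of the 15, 5 of the 11 and 4 of the 12 were lower. Of all 26208 probe sets, 3299 were lower at that p. These are counts over few genes that share the same 8 animals, and the difference between compartments was not tested.

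**Figure D3:**
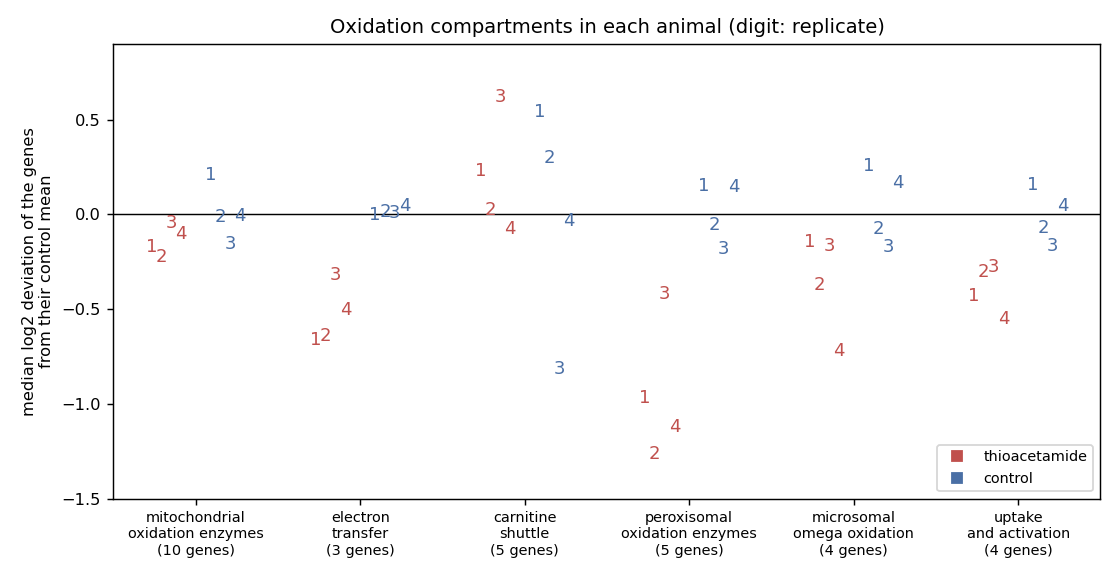
Median over the genes of each role of the log2 deviation from the gene's control mean, for each animal (digit: replicate number; thioacetamide in red, control in blue). The peroxisomal enzymes of the 4 thioacetamide animals sit between -1.27 and -0.42, below the controls at -0.18 to 0.15. Electron transfer and uptake and activation are also apart, while the mitochondrial, carnitine shuttle and microsomal groups overlap.

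Uptake and activation had 1 of 4 genes lower, beside 5.14% of all probe sets, and all 4 differences negative. Acsl1, the main long-chain acyl-CoA synthetase of liver, read 13.95, 14.31, 14.32 and 13.52 in thioacetamide livers, against 15.10, 14.71, 14.60 and 14.95 in control livers. The groups did not overlap, though thioacetamide replicates 2 and 3 lay close to control replicate 3. The log2 difference was -0.82 ± 0.23 (adjusted p = 0.0431, limma, n = 4 per group). Acsl1 missed the threshold with any array but control replicate 3 left out (differences of -0.91 to -0.65, adjusted p = 0.0553 to 0.111). Fabp1, the liver fatty acid binding protein and the member with the DR1 match, differed by -0.33 (interval -0.77 to 0.11) at levels close to the top of the scale. The synthetase Acsl5 differed by -0.32 (-0.91 to 0.27), and Slc27a2, a very long-chain acyl-CoA synthetase and transporter, by -0.24 (-0.64 to 0.16).

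Of 17 other genes of uptake and activation, 5 rose and 3 fell, against 9.46% and 5.14% of all probe sets. Acsm5, a medium-chain acyl-CoA synthetase, rose by 3.13 ± 0.37 to 12.85 ± 0.50 in thioacetamide livers, against 9.72 ± 0.72 in control livers (adjusted p = 0.000589, limma), while another of its probe sets differed by 1.64 (adjusted p = 0.0694), and the mean over both by 2.38. Its relative Acsm3 fell to 8.97 ± 0.27 in thioacetamide livers, against 11.33 ± 0.27 in control livers (log2 difference -2.37 ± 0.22, adjusted p = 0.000159). Fabp4, the binding protein of adipocytes, which macrophages and endothelium also make, read 11.55, 11.15, 10.76 and 11.91 in thioacetamide livers, against 8.77, 8.65, 8.95 and 9.66 in control livers. All treated livers lay above all controls, and the log2 difference was 2.33 ± 0.31 (adjusted p = 0.000956). Fabp2, the intestinal binding protein, differed by 2.67 ± 0.67 (adjusted p = 0.0252), with control livers above background on 2 of 4 arrays. The Fabp2 difference was 2.08 without control replicate 3, and 1.27 without control replicates 2 and 3 and thioacetamide replicate 4. It missed the threshold without any 1 thioacetamide array or without control replicate 2 (adjusted p = 0.0509 to 0.0762). Slc27a5, the bile acid and very long-chain acyl-CoA synthetase, named after its values were seen, fell to 13.04 ± 0.47 in thioacetamide livers, against 14.71 ± 0.10 in control livers (log2 difference -1.67 ± 0.24, adjusted p = 0.00175). Acsm2, Fabp7 and Acsl3, also named after their values were seen, were the remaining genes of the list past the threshold. Acsm2 differed by 1.82 (adjusted p = 0.0307, limma), with overlapping groups. Fabp7 differed by -1.51 (adjusted p = 0.00291) and Acsl3 by 1.15 (adjusted p = 0.0254).

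Bdh1, the mitochondrial enzyme that interconverts acetoacetate and 3-hydroxybutyrate, was the only ketone body gene among the members. It read 12.33, 11.77, 12.43 and 11.96 in thioacetamide livers, against 13.85, 13.58, 13.70 and 13.82 in control livers. All treated livers lay more than a log2 unit below all controls. The group means were 12.12 ± 0.31 and 13.74 ± 0.12 (SD, n = 4 each), 3.06-fold lower, with a log2 difference of -1.62 ± 0.21 and an adjusted p of 0.000825 (limma). Of 6 other ketone body genes, 2 rose and 0 fell (1 lower at an unadjusted p under 0.05, limma). For all probe sets the shares were 9.46% higher and 5.14% lower. Slc16a1, a carrier of ketone bodies and lactate, rose by 1.06 ± 0.26 (adjusted p = 0.0211), but missed the threshold without thioacetamide replicate 2 or 3 (adjusted p = 0.0627 and 0.0755). Bdh2, a cytosolic relative of Bdh1, differed by 1.73 ± 0.46 (adjusted p = 0.0321), with 3 of 4 control arrays above background. The difference was 0.73 (adjusted p = 0.0835) without control replicates 2 and 3 and thioacetamide replicate 4. Bdh2 also missed the threshold without any 1 thioacetamide array or without control replicate 2 (adjusted p = 0.0628 to 0.0868).

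Ppara itself fell. It read 10.84, 10.49, 11.32 and 10.77 in thioacetamide livers, against 11.38, 11.66, 12.46 and 11.82 in control livers. Thioacetamide replicate 3 came just under control replicate 1, so the gap was small. The log2 difference was -0.98 ± 0.27, 1.97-fold lower (adjusted p = 0.0393, limma, n = 4 per group). It missed the threshold without thioacetamide replicate 1, 2 or 4 or control replicate 2, 3 or 4 (differences of -1.03 to -0.77, adjusted p = 0.0589 to 0.124).

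The other regulators and signals among the members did not pass. Pdk4, the pyruvate dehydrogenase kinase that spares glucose when fat is burned, read 12.95, 12.25, 12.89 and 12.10 in thioacetamide livers and 12.90, 12.57, 11.87 and 12.66 in control livers, and the groups were intermixed. It differed by 0.05 (interval -0.59 to 0.69). Fgf21, a fasting hormone of liver and a PPAR-alpha target, differed by 0.08 (-1.06 to 1.22) and was above background on 3 of 4 thioacetamide and 2 of 4 control arrays.

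Of 22 partners and coregulators, 2 rose and 2 fell, against 9.46% and 5.14% of all probe sets. Rxra, the DNA-binding partner of PPAR-alpha, read 11.88, 11.47, 12.30 and 11.55 in thioacetamide livers, against 12.82, 12.75, 12.92 and 12.93 in control livers. Every treated liver lay below every control, and the log2 difference was -1.05 ± 0.22, 2.07-fold lower (adjusted p = 0.0106, limma). Ppargc1b, a coactivator of oxidative genes, differed by -1.10 ± 0.27 (adjusted p = 0.0233) and missed the threshold without thioacetamide replicate 1 or 2 (adjusted p = 0.0764 and 0.081). Nrip1, a corepressor of nuclear receptors, rose by 1.34 ± 0.24 (adjusted p = 0.00465). Pparg, the adipogenic relative of Ppara, read 8.79, 9.25, 8.71 and 8.21 in thioacetamide livers, and was at or under background on all 4 control arrays. It was at least 2.69-fold higher (adjusted p = 0.00038). Ppargc1a, the coactivator induced by fasting, differed by 0.30 (interval -0.61 to 1.22, adjusted p = 0.67).

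Other known PPAR-alpha targets did not move in 1 direction. Of 23, 6 rose and 2 fell, against 9.46% and 5.14% of all probe sets. Acot1, a cytosolic acyl-CoA thioesterase, read 12.30, 12.29, 12.61 and 12.68 in thioacetamide livers and was at or under background on all 4 control arrays, at least 35.8-fold higher (adjusted p = 2.18e-07). Vnn1, a pantetheinase, read 11.42, 11.41, 11.67 and 10.75 in thioacetamide livers, against 7.03, 8.42, 5.60 and 8.38 in control livers. Every treated liver was above every control for Vnn1, and the controls were widely spread. Its log2 difference was 3.96 ± 0.56 (adjusted p = 0.00152, limma), with 3 of 4 control arrays above background, and 3.37 without control replicate 3. The mitochondrial thioesterase Acot2 rose (log2 difference 2.81 ± 0.54, adjusted p = 0.00697), but only 2 of 4 control arrays were above background, so the size is uncertain, and it was 2.01 without control replicates 2 and 3 and thioacetamide replicate 4. Cpt1b, the muscle form of the carnitine transferase whose liver form Cpt1a did not pass, rose by 2.62 ± 0.30 to 9.45 ± 0.25 in thioacetamide livers, against 6.83 ± 0.60 in control livers (adjusted p = 0.000457), with 1 of 4 control arrays above background. Plin2, a lipid droplet coat protein, at 0.45 (adjusted p = 0.129) and Angptl4, an inhibitor of lipoprotein lipase, at 0.41 (adjusted p = 0.574) did not pass. Cidea, a lipid droplet protein of brown fat and of fatty rodent liver, named after its values were seen, read 12.37, 11.58, 11.96 and 12.43 in thioacetamide livers, against 7.97, 10.28, 10.52 and 9.92 in control livers (log2 difference 2.41 ± 0.50, adjusted p = 0.0105). Its difference was 3.02 without control replicates 2 and 3 and thioacetamide replicate 4. The other genes of the list past the threshold, also named after their values were seen, are the fatty acid transporter Cd36 and the lipid droplet proteins Cidec and G0s2, an inhibitor of the lipase of the droplet. Cd36 differed by 1.39 ± 0.38 (adjusted p = 0.0346), with overlapping groups, and missed the threshold without thioacetamide replicate 1, 2 or 3 or control replicate 1, 2 or 3 (adjusted p = 0.0577 to 0.109). Cidec fell to 12.10 ± 0.35 in thioacetamide livers, against 13.07 ± 0.23 in control livers (log2 difference -0.96 ± 0.23, adjusted p = 0.0188), and missed the threshold without thioacetamide replicate 2 (adjusted p = 0.0607). G0s2 differed by -1.18 ± 0.34 (adjusted p = 0.0438), with overlapping groups, and missed it with any array but thioacetamide replicate 4 left out (adjusted p = 0.0567 to 0.125). Cidea, Pparg and Fabp4 are also adipocyte genes. Of the 4 adipocyte markers, 1, Cidea, rose, while Plin1 and Lep were at or under background on all 8 arrays and Adipoq differed by 0.51 (adjusted p = 0.104). The summed linear level of the 4 was 3318 to 5831 in thioacetamide livers and 477 to 1832 in control livers, a sum in which Cidea was the largest term on every array and which is no separate measure.

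**Figure D4:**
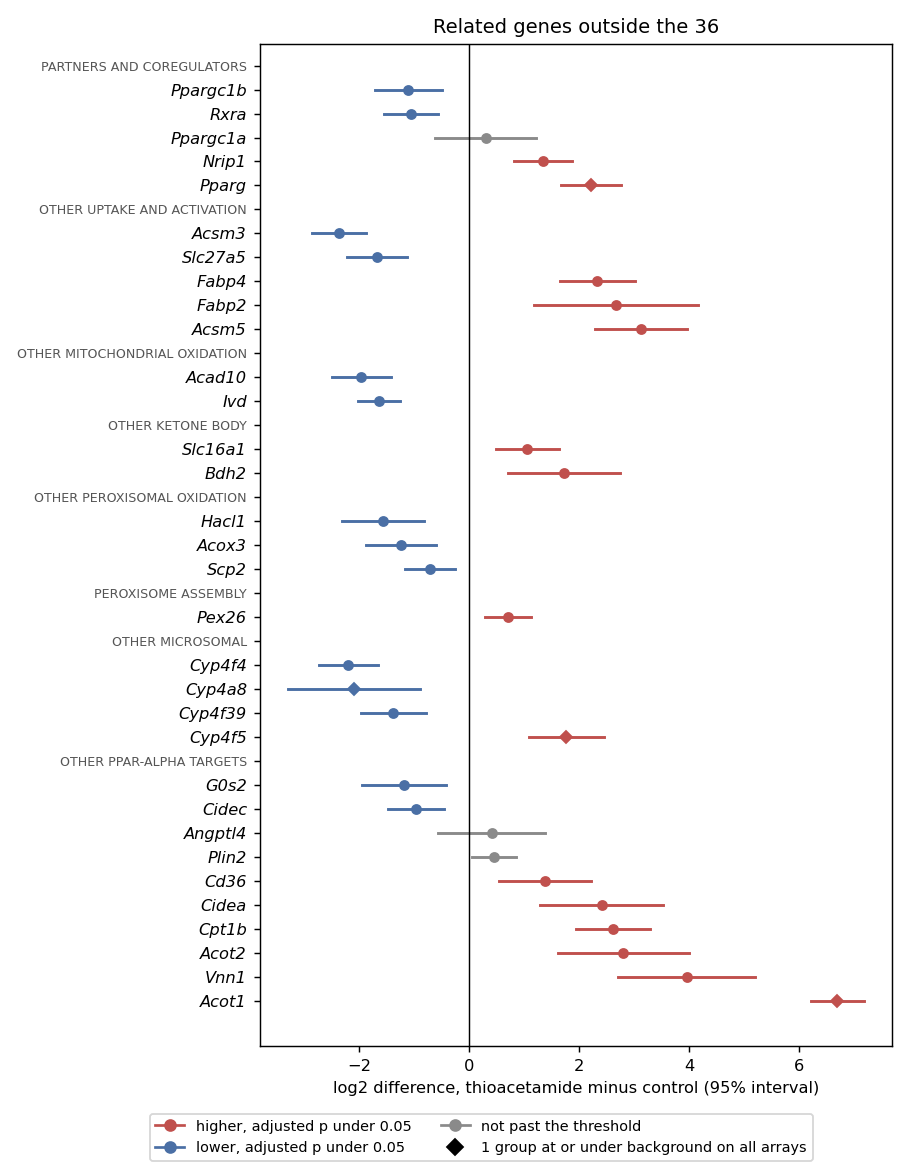
Log2 difference, thioacetamide minus control, of related genes that are not among the 36, by list (points, with 95% intervals of the fit, 4 animals per group; diamonds mark genes with 1 group at or under background on all arrays, whose fold is given as a bound only). Acot1 at 6.70 and Vnn1 at 3.96 lie far to the right, and Acsm3 at -2.37 is the lowest shown.

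Animals of 1 group did not rank alike over the 36 genes. Thioacetamide replicate 3 was the highest of its group for 22 members and thioacetamide replicate 4 the lowest for 23. Among controls, replicate 1 was the highest for 28 and replicate 3 the lowest for 23. Over all probe sets above background on all arrays, thioacetamide replicate 3 was highest for 24.0%, thioacetamide replicate 4 lowest for 34.5%, control replicate 1 highest for 24.1% and control replicate 3 lowest for 41.7%. Control replicate 3 also had the highest background level of the 8 arrays, 7.94, against 6.54 to 7.36 on the others.

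**Figure D5:**
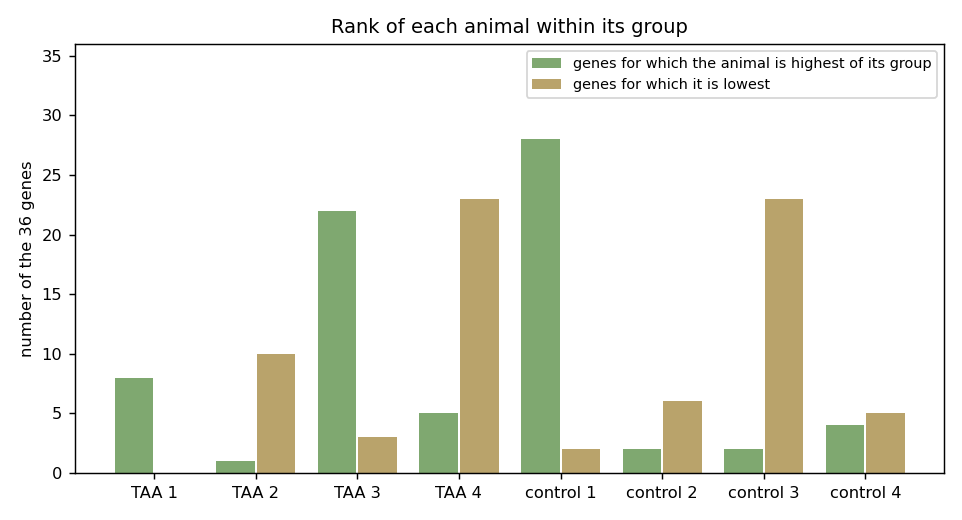
Number of the 36 genes for which each animal had the highest (green) or lowest (tan) value of its own group of 4 (TAA, thioacetamide). Control replicate 1 is highest for 28 genes and thioacetamide replicate 3 for 22, while thioacetamide replicate 4 and control replicate 3 are each lowest for 23.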

How the data were processed

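Liver RNA of 8 rats was extracted with the RNeasy Mini Kit and labelled by the array maker, per the labels' protocols, 1 array per animal and 4 animals per group, so p-values rest on the variation among animals. The deposited values are log2 expression values per probe set that the authors made with RMA (background correction, normalization between arrays, summary of probes), per the submitters' processing notes. The sources used here give no version, slide layout or array build. The planned fit allowed for raw intensities. The values were already RMA values, so background correction and quantile normalization were not repeated.

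Probe sets were named through RefSeq (GRCr8), 20543 by gene identifier and 31 by accession. The remaining 5634 took their name from the deposited annotation. For related genes with several probe sets the one with the highest mean was used. Control replicate 4 had no value for 11 probe sets, none of them used for a gene named here. The test was limma 3.58.1 (lmFit and eBayes, no covariate) in R 4.3.3, two-sided, and p-values were adjusted by Benjamini-Hochberg across the 26208 probe sets. Its code was also run on simulated data with independent noise, which is no check of its assumptions on these arrays. Differences are thioacetamide minus control, ± SE, and other errors are SD. Background is the 95th percentile of the 1225 olfactory receptor probe sets of an array. Arrays give no depth, and their number limits the precision.

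The 36 members, the role lists, the 8 related lists and the marker lists were chosen with earlier results of these data known. Each array's value was given for members past the threshold and, in a role list with none, for the member with the largest absolute difference. Of each related list at most the 4 largest past the threshold were named, plus Rxra, Ppargc1a, Vnn1, Acot1, Plin2, Angptl4 and Cpt1b. Other array values were added as illustration. A few genes of these lists and of this rule are not reported here, and the list counts leave them out. Not on the array under their symbols were Acot4, Hilpda and Acss1. Alternatives were median centring, cyclic loess, quantile normalization, array weights, leaving out dim probe sets, eBayes with trend and robust options, the mean over a gene's probe sets, complete probe sets only, the replicate number as a block, and leaving out arrays.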

Additional observations from a re-analysis of the deposited data

Results flagged for a closer look

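In 2 of 136 groups of 4 animals examined over 68 genes, 1 animal stood far from the other 3, where chance gives about 1 in 20. Etfdh in control replicate 3 was the lowest of its group at 13.43, with the others at 13.93 to 14.02. Cyp4a8 in thioacetamide replicate 3 was the lowest of its group at 5.52, with the others at 6.26 to 6.39, all at or under background.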

How the results depend on the processing

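Acox2, Amacr and Bdh1 stayed lower and past the threshold in all 18 alternatives, and the other 5 lower members missed it in at least 1. Over 648 comparisons of a member with an alternative, 571 kept direction and side of the threshold, 34 lost it, 19 gained it and 24 changed sign, all of these in members that had not passed. Many of the 571 were bound to keep direction. The dim filter, the trend and robust options and the replicate block leave a member's difference as it was. So do the mean over probe sets and complete probe sets only, since each member has 1 probe set. The count of lower members was 13, and that of higher members 1, with an intensity trend and robust estimation. With 1 array left out, 3 to 9 members were lower and 0 higher, and over all probe sets 1447 to 2436 were higher and 719 to 1488 lower (1857 lower without the 3 arrays named below). With the replicate number as a block, 4 members were lower, and 1475 probe sets were higher and 688 lower. Deviations of same-numbered animals from their group means correlated at r of 0.25, -0.10, -0.13 and -0.43 across probe sets, for replicates 1 to 4. The numbers were therefore not taken to pair the animals. Correlations over 4 animals per group cannot settle whether animals were paired. With the wider assignment to compartments 2 mitochondrial genes were lower. The dim filter moved the median of the probe sets tested by 0.17, since fewer low ones were tested. The median member difference of -0.33 compares with -0.03 over all probe sets, which median centring moved to -0.10.

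Sign changes were small. Cpt2 was -0.044 with array weights, -0.030 without control replicates 2 and 3 and thioacetamide replicate 4 (chosen after seeing the data), and -0.066 to 0.22 with 1 array left out. Acadl was 0.0089 with cyclic loess and 0.028 with quantile normalization. Pdk4 was -0.014 with median centring, -0.029 with cyclic loess, -0.049 with array weights, -0.085 without the 3 arrays and -0.16 to 0.20 with 1 left out. Fgf21 was -0.093 with cyclic loess, -0.090 with array weights, -0.058 without the 3 arrays and -0.25 to 0.56 with 1 left out. Ppargc1a was -0.011 without the 3 arrays and up to 0.71 without control replicate 4. With 1 array left out, Pex11a ran from -0.54 to 0.20 and Cyp4a1 from -0.45 to 0.044. The causes were not tested. Genes close to the top of the scale, such as Fabp1, may have differences compressed there, and levels near background, as for Fgf21 and Pex11a, limit precision.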
